A study of Mus musculus with 2 samples.

Results

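The genes of CREB, its close relatives in the ATF family and their coactivators were followed in the DNase I hypersensitivity data of M1 cells, a murine myeloid leukemia line that can be driven toward macrophages by the cytokine IL-6. The 9 genes were Creb1, Crem, Atf1, Atf2, Atf4, Crebbp, Ep300, Crtc2 and Crtc3, chosen by name from the 22605 genes of the deposited table. They hold 78 of its 55432 transcript rows, and the transcript that touched most windows stood for each gene. DHS-seq was performed once in untreated M1 cells and once in M1 cells given IL-6, for 4 to 5 days according to the labels. Both cultures came from the same line and the same serum medium, no genetic change separated them, and the sources used here give no IL-6 concentration. With 1 library per condition no difference has a replicate check. The study looked for distal control of the *c-myb* gene during differentiation. CREB was among the factors it examined there by chromatin immunoprecipitation, and it reported no CREB enrichment.

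CREB, CREM and ATF1 are closely related bZIP proteins that bind the cAMP response element as dimers and are switched on when protein kinase A phosphorylates them. The phosphorylated form recruits the acetyltransferases CBP and p300, while the CRTC proteins bind CREB independently of that phosphorylation once they enter the nucleus. ATF2 answers to stress-activated kinases, and ATF4 is made when phosphorylation of a translation initiation factor slows general protein synthesis.

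The cAMP response element is the palindrome TGACGTCA, and its half-site is TGACG, which reads CGTCA on the other strand. RefSeq promoters of the table built on GRCm38.p6 were searched for both in the 250 bases before the start, on both strands. A half-site was found in 17.8% of 32851 promoters and the whole palindrome, which contains it, in 1.55%. An entry was found for 7 of the 9 genes, 2 of them with a half-site and 0 with the palindrome. No entry was found for Crem and Crtc2. The promoters of Atf4 and Atf1 are shown because they carry the half-sites, and that of Crtc3 because it reached furthest into the windows measured. Each matched NCBIM37, the build of the data, at 1 place. Capitals mark the half-site, and each line runs 5′ to 3′ toward the start.
Atf4, chr15:80085364-80085613, plus strand: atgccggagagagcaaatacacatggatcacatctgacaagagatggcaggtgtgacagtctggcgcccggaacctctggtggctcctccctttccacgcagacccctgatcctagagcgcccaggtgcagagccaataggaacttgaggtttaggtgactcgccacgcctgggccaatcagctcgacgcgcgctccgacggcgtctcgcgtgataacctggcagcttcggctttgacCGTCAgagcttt
Atf1, chr15:100058040-100058289, plus strand: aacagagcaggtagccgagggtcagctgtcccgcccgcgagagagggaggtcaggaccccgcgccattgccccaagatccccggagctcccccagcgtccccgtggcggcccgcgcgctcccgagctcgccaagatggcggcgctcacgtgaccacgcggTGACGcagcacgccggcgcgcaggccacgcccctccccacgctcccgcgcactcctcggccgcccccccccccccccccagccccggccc
Crtc3, chr7:87833764-87834013, minus strand: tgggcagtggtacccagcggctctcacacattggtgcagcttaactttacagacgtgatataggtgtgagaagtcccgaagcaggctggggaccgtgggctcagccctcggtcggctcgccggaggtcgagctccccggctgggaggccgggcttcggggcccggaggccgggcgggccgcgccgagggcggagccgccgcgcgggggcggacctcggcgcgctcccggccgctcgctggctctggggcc
The half-site begins 12 bases before the start in Atf4 and 90 bases before it in Atf1. Of these 250-base promoters, 13 bases of Atf4, 137 bases of Crtc3 and 0 bases of Atf1 lie inside windows of the table. A match is a description of these letters and no evidence of binding.

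The table gives, for each transcript, the mean and SD of signal over the 700-bp windows touched by its coding span, which runs from the start to the stop codon with the introns between. Signal is in reads, each worth 1.0 in M1 cells and 1.03816 in IL-6-treated cells. Promoters are therefore measured only where they fall in these windows. The windows held the outermost 5′ end of the gene in Atf4, Crtc2 and Crtc3, while in the other 6 genes they began downstream of it, by 104 bp in Crebbp and 29.1 kb in Atf2. Non-overlapping spans of all genes held 9102320 reads in M1 cells and 8544903 in IL-6-treated cells. Intervals below are 95% exact Poisson intervals for levels and 95% Clopper-Pearson intervals for ratios. They hold the error of counting alone and speak of this pair of libraries rather than of the treatment. SDs are between windows of 1 gene. Directions hold for the deposited scaling. Scalings set on strong windows, those with at least 22 reads in both libraries (median of ratios, trimmed mean of log ratios), shift every log2 ratio up by 1.83 and 1.68, and with them only Atf4 of the 9 genes stayed lower. A common factor leaves the order of genes by ratio as it is, so ranks are given beside the ratios.

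In M1 cells the highest level belonged to Atf4, at 214.5 reads per window (95% interval 200.4 to 229.3), the 99.5 percentile of all genes. Crtc2 followed at 49.0 (45.5 to 52.7) and the 95.6 percentile. The other 7 genes lay between 2.45 for Atf2 and 10.1 for Atf1, on either side of the median of all genes, 7.75. Creb1, the gene of the founding member, was among the weakest at 3.0 (2.60 to 3.45), the 17.4 percentile. Its windows begin 18.0 kb downstream of the 5′ end, while those of Atf4, Crtc2 and Crtc3 include that end of their gene. The counting interval of Creb1 overlapped that of Atf2. Neighbors in the order also overlapped for Atf1 and Crtc3, for Crtc3 and Ep300, and for Crebbp and Crem, while all other neighbors were apart. In IL-6-treated cells the order was the same throughout, with Atf4 at 49.1 (42.3 to 56.6) and Atf2 at 3.26 (2.83 to 3.74).

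**Figure D1:**
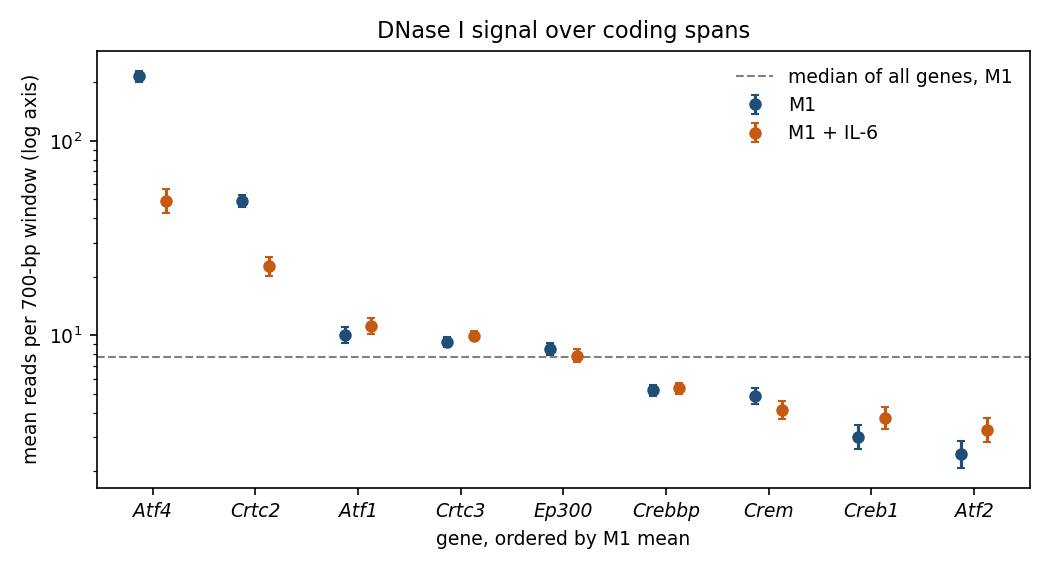
Mean DNase I signal per 700-bp window (log axis) over the coding span of each gene in untreated (blue) and IL-6-treated (orange) M1 cells, with the genes ordered by their M1 mean. Bars are 95% exact Poisson intervals of the read count, and the dashed line marks the M1 median of all genes, 7.75. Atf4 fell from 214.5 to 49.1 and Crtc2 from 49.0 to 22.6 with the deposited scaling, while the other 7 genes stayed between 2.45 and 11.2. Crtc2 is higher after IL-6 under both scalings set on strong windows.

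Atf1, Atf4 and Ep300 all lie on chromosome 15, where coding spans had a median of 14.6 reads per window in M1 cells and 14.8 in IL-6-treated cells. Among the 792 genes of that chromosome Atf1 was at the 31.8 percentile and Ep300 at the 26.8 percentile, against 61.8 and 54.5 among all genes. Atf4 kept the 99.5 percentile on its own chromosome. Whether the level of the chromosome plays a part in those of Atf1 and Ep300 was not tested.

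After IL-6, 4 of the 9 genes were lower, as were 48.3% of genes at large, and 5 were higher. The median log2 ratio was 0.03, beside 0.03 over the 18472 genes that had over 21 reads in 1 library or both. All 9 genes passed that number. Atf4 and Crtc2, 2 of 9, were at least 1.5-fold lower, where 23.2% of all genes were, and 0 were at least 1.5-fold higher, where 10.8% were. Only Atf4 and Crtc2 were at least 2-fold lower and 0 were 2-fold higher, against 13.4% and 1.71% of all genes. The interval of the ratio lay below 1 in Crem, Atf4 and Crtc2, where this held for 34.4% of all genes. It lay above 1 in Creb1 and Atf2, against 29.0% of all genes. For Atf1, Crebbp, Ep300 and Crtc3 it held 1. In such bulk libraries, fewer cells with an open site and less cutting at the site in each cell cannot be told apart. The numbers past each limit were thus close to those of genes at large. The SD between windows relative to the mean was smaller after IL-6 in 8 of the 9, all but Atf1, as it was in 82.9% of genes at large.

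**Figure D2:**
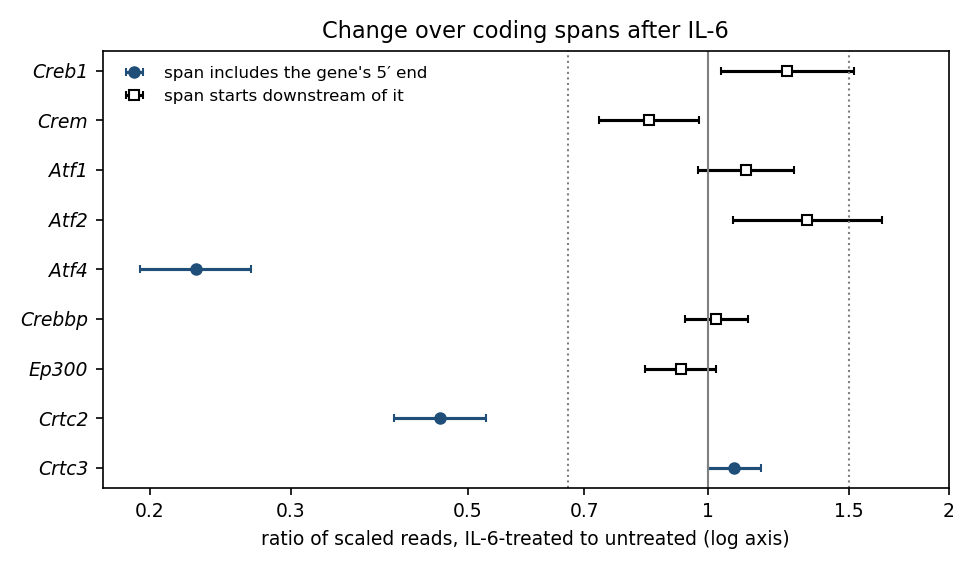
Ratio of scaled reads in IL-6-treated to untreated M1 cells over the coding span of each gene (log axis), with 95% Clopper-Pearson intervals. Filled circles mark spans that include the outermost 5′ end of the gene, and dotted lines mark 1.5-fold in each direction. Atf4 at 0.229 and Crtc2 at 0.462 lie apart from the other 7 genes, which lie between 0.843 and 1.33. Under both scalings set on strong windows every gene but Atf4 is above 1.

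Among the DNA-binding factors, Creb1 on chromosome 1 had slightly more signal after IL-6. Its 67 windows, from 64597401 to 64644300, begin 18.0 kb downstream of the 5′ end. They held 201 reads in M1 cells and 243 in IL-6-treated cells, or 3.0 (SD 3.26) and 3.77 (SD 3.26) scaled reads per window. The ratio was 1.26 (1.037 to 1.52) and lay at the 70.8 percentile of all genes. Ratios were above 1 in 4 of the 5 stretches that its transcripts isolate, but the interval held 1 in all except the longest. Whether the larger number was spread along the gene cannot be told from them. The longest, of 51 windows, went from 152 to 186 reads, a ratio of 1.27 (1.02 to 1.59).

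Crem encodes activators and repressors of the same DNA element, and an internal promoter is known to give the short repressor ICER. Its 87 windows on chromosome 18, from 3266901 to 3327800, held 426 reads in M1 cells and 346 in IL-6-treated cells. The mean went from 4.90 to 4.13 reads per window and the SD between windows from 10.9 to 5.13, so that a few windows carried much of the M1 signal. The ratio was 0.843 (0.730 to 0.974), at the 35.5 percentile of all genes.

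The 36 listed transcripts of Crem divide the gene into 12 stretches. One of them, the 7 windows from 3277401 to 3282300, held 39.4% of the M1 reads in 8.05% of the windows. It contains the annotated starts of 7 short coding transcripts, from 3281076 to 3281767. Here 168 reads in M1 cells stood against 79 in IL-6-treated cells, or 24.0 (SD 33.7) against 11.7 (SD 14.4) scaled reads per window. The ratio was 0.488 (0.369 to 0.642). The strongest single window of the stretch had between 65 and 100 reads in M1 cells and between 27.0 and 43.6 in IL-6-treated cells, the bounds that the mean and SD allow. The other 80 windows held 258 and 267 reads, a ratio of 1.07 (0.902 to 1.28). In each of the other 11 stretches the interval held 1, and their M1 means ran from 2.0 to 5.0 reads per window. Another 4 of them also hold annotated starts, with ratios of 0.415, 0.856, 1.32 and 1.59. The lower signal of Crem was thus located in the 1 stretch of 7 windows, which was singled out after its values were seen. The outermost 5′ end of the gene lies 9.95 kb outside the windows.

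**Figure D3:**
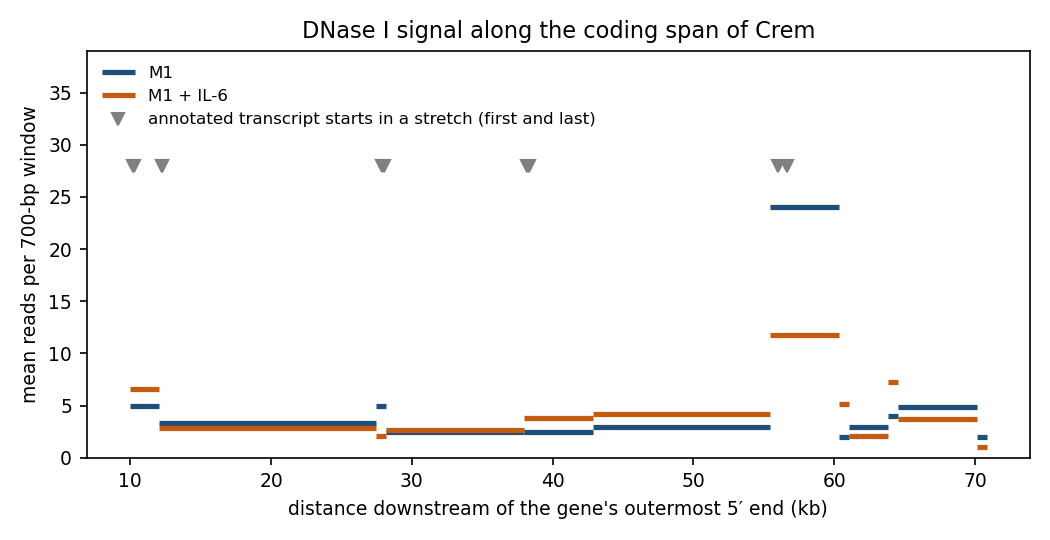
Mean reads per 700-bp window in the 12 stretches of Crem that its transcripts isolate, against the distance from the outermost 5′ end of the gene in kb, for untreated (blue) and IL-6-treated (orange) M1 cells with the deposited scaling. Triangles mark the first and last annotated transcript start in a stretch. The stretch of 7 windows with most signal stands at 24.0 in M1 cells and 11.7 after IL-6, above every other stretch in both libraries, and under the scalings set on strong windows its IL-6 value is the higher.

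Atf1 encodes an activator closely related to CREB. Its 40 windows on chromosome 15, from 100062901 to 100090900, held 402 reads in M1 cells and 432 in IL-6-treated cells. The means were 10.1 (SD 5.53) and 11.2 (SD 8.37), with a ratio of 1.12 (0.972 to 1.28). This gene had the smallest SD relative to its mean of all 9 in M1 cells, 0.551. That measure also depends on the number of reads per window, so it does not rank the genes by evenness. Within it, 27 windows from 100063601 to 100082500 went from 287 to 331 reads, a ratio of 1.20 (1.02 to 1.41), while the last 8 windows went from 83 to 75 reads, a ratio of 0.938 (0.677 to 1.30).

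Atf2 had the least signal of the 9 and the largest ratio. Its 64 windows on chromosome 2, from 73656801 to 73701600, held 157 reads in M1 cells and 201 in IL-6-treated cells. This gave 2.45 (SD 2.24) and 3.26 (SD 2.46) scaled reads per window and a ratio of 1.33 (1.07 to 1.65), at the 77.0 percentile of all genes. Ratios varied along the gene, but the intervals of all stretches with reads overlapped. At the 3′ end 13 windows went from 42 to 63 reads, a ratio of 1.56 (1.037 to 2.36). The next 2 windows held 9 and 4 reads, a ratio of 0.461 (0.104 to 1.65). After them, 11 windows held 32 and 32 reads, a ratio of 1.04 (0.616 to 1.75). A further 12 windows, from 73675001 to 73683400, went from 16 to 38 reads, a ratio of 2.47 (1.34 to 4.74). The 25 windows nearest the 5′ end held 58 and 64 reads, a ratio of 1.15 (0.790 to 1.66). The window at 73683401, which contains an annotated coding transcript start, had 0 reads in both libraries, which allows up to 3 reads in each.

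Atf4, the stress-response factor, changed most. The gene is short, and its 4 windows on chromosome 15, from 80085601 to 80088400, held 858 reads in M1 cells and 189 in IL-6-treated cells. The mean went from 214.5 (SD 329.4) to 49.1 (SD 62.3) scaled reads per window. The ratio of 0.229 (0.194 to 0.268), a log2 ratio of -2.13, lay at the 0.996 percentile of all genes. It remained below 1 under both scalings set on strong windows, with log2 ratios of -0.30 and -0.44. The 212 single windows with a summed signal over 200 reads, described below, had a median ratio of 0.213 with the deposited scaling. Their median also stays below 1 under these scalings, so staying lower does not set Atf4 apart from them.

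The first of the 4 windows, from 80085601 to 80086300, could be read on its own. It contains both annotated starts of the gene, 80085614 and 80085931, and the last 13 bases of the promoter printed above. In M1 cells it held 706 reads, 82.3% of those on the gene. In IL-6-treated cells it held 136 reads, 72.0% of those on the gene, for a ratio of 0.20 (0.165 to 0.241). The 3 windows downstream fell as well, from 152 to 53 reads and a ratio of 0.362 (0.260 to 0.498). In M1 cells these 3 held 94, 45 and 13 reads, and in IL-6-treated cells the strongest held 30 or 32. These values are listed by size, because their order along the gene cannot be read. The start window therefore had more reads than the 3 others together in both libraries, and a decrease was also present in the windows downstream of it.

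That window stood at the 99.6 percentile of M1 reads among 4349 single windows that could be read from the table. Windows with the most signal were weaker as a class in the IL-6 library. Of the windows with a summed signal over 200 reads, 212 of 212 were at least 1.5-fold lower, with a median ratio of 0.213, a 5 percentile of 0.142 and a 95 percentile of 0.292. At 0.20 the Atf4 start window was at the 41.0 percentile of these ratios. Its decrease was thus within the range of these 212 windows, a class with no upper limit on strength. The share at least 1.5-fold lower was 69.3% for sums over 50 and up to 200 reads, and 22.2% for sums over 21 and up to 50 reads. Among genes with a similar number of windows, the levels in both libraries were most like those of Fahd1 (427 and 94 reads), 9130011J15Rik (1249 and 287 reads) and Higd2a (446 and 95 reads), of 6917 genes compared. Whether the weaker contrast of the IL-6 library accounts for the values of Atf4 was not tested.

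With the deposited scaling the acetyltransferase genes hardly moved. Under the scalings set on strong windows, the log2 ratios were 1.86 and 1.72 for Crebbp and 1.71 and 1.57 for Ep300. Crebbp, which encodes CBP, had 968 reads in M1 cells and 954 in IL-6-treated cells over 185 windows on chromosome 16, from 4083801 to 4213300. The means of 5.23 (SD 4.40) and 5.35 (SD 4.13) scaled reads per window gave a ratio of 1.02 (0.935 to 1.12). A change of 1.5-fold in either direction lies outside this counting interval. Ep300, which encodes p300, had 793 and 706 reads over 93 windows on chromosome 15, from 81417001 to 81482100. Its means were 8.53 (SD 7.63) and 7.88 (SD 6.53), with a ratio of 0.924 (0.834 to 1.02). Its first window, 1.22 kb from the outermost 5′ end of the gene, had 18 reads in M1 cells and 8 in IL-6-treated cells. The ratio was 0.461 (0.174 to 1.12), on too few reads to show a difference. The other 92 windows had a ratio of 0.935 (0.843 to 1.037).

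The CRTC genes encode coactivators that wait in the cytoplasm while salt-inducible kinases keep them phosphorylated, and that enter the nucleus after calcineurin removes the phosphate. The ratios of Crtc2 and Crtc3 had intervals that did not overlap. Crtc2 is compact, and its 15 windows on chromosome 3, from 90057801 to 90068300, held 735 reads in M1 cells and 327 in IL-6-treated cells. The means were 49.0 (SD 112.6) and 22.6 (SD 25.4), with a ratio of 0.462 (0.404 to 0.527), a log2 ratio of -1.11, at the 11.3 percentile of all genes. Under the scalings set on strong windows its log2 ratio was 0.71 and 0.57.

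The decrease of Crtc2 was located in the 7 windows toward its 5′ end, which are 46.7% of its windows. The 7 windows from 90057801 to 90062700 held 601 reads in M1 cells, 81.8% of the total, and 186 in IL-6-treated cells, 56.9% of the total. Their ratio was 0.321 (0.271 to 0.379). The strongest of them had between 351 and 454 reads in M1 cells and between 70.6 and 110.0 in IL-6-treated cells. Its position in the stretch cannot be read. The window from 90058501 to 90059200 is also listed for the predicted gene Gm10973 and had 83 and 30 reads. Without it the other 6 windows had a ratio of 0.313 (0.260 to 0.375). The 8 windows toward the 3′ end held 134 and 141 reads, or 16.8 (SD 9.59) and 18.3 (SD 9.29) scaled reads per window, a ratio of 1.09 (0.856 to 1.39). The transcript of Crtc2 that covers only these 8 windows would therefore give no decrease, with an interval that holds 1.

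Crtc3 is long, and its 142 windows on chromosome 7, from 87734501 to 87833900, include the 5′ end. They held 1313 reads in M1 cells and 1364 in IL-6-treated cells, a ratio of 1.08 (0.999 to 1.16). The mean changed little, from 9.25 to 9.97, but the SD between windows went from 10.3 to 6.43. The strongest window had between 21 and 130 reads in M1 cells and between 15.6 and 85.1 in IL-6-treated cells, so whether it lost reads cannot be read from these bounds. In the interior of the gene, 22 windows from 87740101 to 87755500 went from 145 to 193 reads, a ratio of 1.38 (1.11 to 1.73). A further 29 windows from 87754801 to 87775100, 1 of them shared with these, went from 195 to 271 reads, a ratio of 1.44 (1.20 to 1.74). Outside the longer of the 2 stretches the ratio was 1.02 (0.933 to 1.10).

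**Figure D4:**
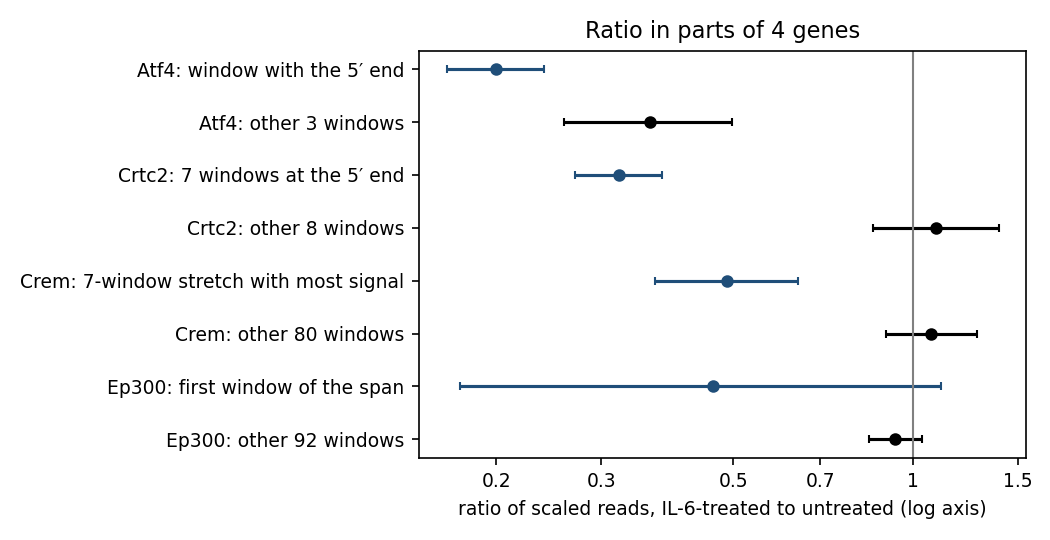
Ratio of scaled reads in IL-6-treated to untreated M1 cells (log axis) in parts of Atf4, Crtc2, Crem and Ep300, with 95% Clopper-Pearson intervals. Blue marks the start window of Atf4, the 5′ windows of Crtc2, the stretch of Crem with most signal and the first Ep300 window, and black the remaining windows of each gene, some of which also hold annotated starts. In Crtc2 the 5′ windows stand at 0.321 and the rest at 1.09, in Crem the stretch stands at 0.488 and the rest at 1.07, and in Atf4 both parts are below 0.5. With the deposited scaling replaced by those set on strong windows, the parts of Crtc2 and Crem and the 3 downstream windows of Atf4 lie above 1.

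The methods of the study call a site where more than 21 reads are counted. A window above this number was present in both libraries in Crem, Atf4 and Crtc2, 3 of the 9 genes. In Atf2 no window reached it, with at most 14 reads in M1 cells and 13.5 in IL-6-treated cells. For the other 5 genes, Creb1 among them, the mean and SD could not decide it. Among genes at large, 32.9% of the 9189 whose windows held the 5′ end were at least 1.5-fold lower, against 13.7% of the 9283 whose windows did not. Among the 9 genes this was 2 of 3 and 0 of 6. At least 1.5-fold higher were 11.3% and 10.4%, and 0 of the 9 genes.

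Genes that work with CREB were described from 6 lists of 96 genes, of which 93 passed the number of reads given above. At least 1.5-fold lower were 15 of them, or 16.1%, and 3 were at least 1.5-fold higher. For all genes, as above, these shares were 23.2% and 10.8%, which are also the background of the counts for each list. Their median log2 ratio was -0.06, against 0.03 over all genes. Windows held the 5′ end in 30 of the 93, and 10 of these 30 were among the 15. Of such genes at large, 32.9% were at least 1.5-fold lower, a similar share. These counts rest on the deposited scaling, and with either scaling set on strong windows the medians of all 6 lists are positive.

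In the rest of the CREB/ATF family, 4 of 13 genes were at least 1.5-fold lower and 0 higher, with a median log2 ratio of -0.17. The lowest were Crebzf, a bZIP cofactor, at -1.62 (164 and 51 reads) and Creb3, which is held in the endoplasmic reticulum membrane, at -1.56 (366 and 119 reads). The highest were Creb5 at 0.54 and Creb3l4 at 0.50. All 4 lower genes had windows with the 5′ end, as had 5 of the 13. Among other coactivators, 1 of 9 was lower by this measure. This was Cited2, which binds CBP and p300, at -1.68 (241 and 72 reads). Kat2b stood at -0.52, and the highest were Cited1 and Ncoa3, both at 0.32. Crtc1, the remaining gene of the CRTC family, had 27.1 and 24.4 scaled reads per window and a ratio of 0.902 (0.846 to 0.961), between those of Crtc2 and Crtc3. It was named after its values were seen.

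Upstream of CREB, few genes of cAMP and protein kinase A signaling passed the fold. Of 24 genes 0 were at least 1.5-fold lower and 1 higher, with a median log2 ratio of 0.11. Windows held the 5′ end in only 4 of the 24, and of genes at large without it 13.7% were lower. The lowest were Pde4a, a cAMP phosphodiesterase, at -0.50 and Pkib, a kinase inhibitor, at -0.46. The highest were Pkia, another inhibitor of the kinase, at 0.73 on only 23 and 37 reads, and Adcy8, an adenylate cyclase, at 0.50. Of the 16 kinases and phosphatases that act on CREB or CRTC proteins, 2 were lower and 0 higher, with a median of -0.17. Both encode subunits of calcineurin, Ppp3cb at -0.82 (411 and 224 reads) and Ppp3r1 at -0.72 (591 and 345 reads). The gene of another calcineurin subunit, Ppp3ca, had 2308 and 2151 reads and a ratio of 0.968 (0.912 to 1.03), and was named after its values were seen. Camk4 at 0.51 and Camk1 at 0.46 were highest.

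Downstream, 3 of 14 CREB target genes were at least 1.5-fold lower and 1 was higher, with a median log2 ratio of 0.28. The lowest were Fosb at -1.41 and Dusp1 at -1.28, both immediate early genes with windows that held the 5′ end. The highest were G6pc, a gluconeogenic gene, at 0.63 and Bdnf, a neurotrophin gene, at 0.54. In the stress pathway of ATF4, 5 of 17 genes were lower and 1 higher, and the median of -0.39 was the lowest of the 6 lists. Ddit4, an inhibitor of mTOR signaling, stood at -1.84 (288 and 77 reads) and the amino acid transporter subunit Slc3a2 at -1.74 (899 and 258 reads). Asns, asparagine synthetase, stood at 0.60 (92 and 135 reads) and the kinase gene Eif2ak2 at 0.14. Of the 5 lower genes of this list, 1 had windows with the 5′ end, as had 4 of the 17.

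**Figure D5:**
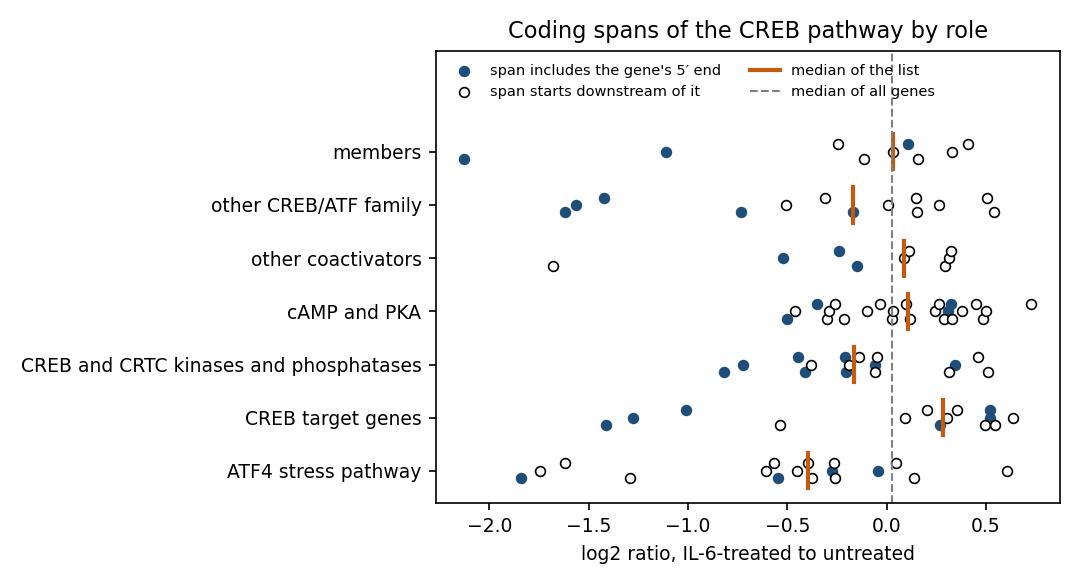
Log2 ratio of IL-6-treated to untreated M1 cells for the coding span of each gene with more than 21 reads, by list, with the deposited scaling. Filled circles are spans with the outermost 5′ end, the orange bar is the median of a list, and the dashed line is the median of all genes, 0.03. Medians run from -0.39 for the ATF4 stress pathway to 0.28 for CREB target genes, and the scalings set on strong windows would move all points up by 1.83 or 1.68.

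Marker genes did not identify the cells at this level. Coding spans of 8 myeloid markers (Sfpi1, Cebpa, Csf1r, Itgam, Ptprc, Mpo, Lyz2 and Csf3r) had 6.20 to 46.5 reads per window in M1 cells, and those of 7 markers of other cell types (Cd3e, Alb, Ins2, Gata1, Epor, Gfap and Myh6) had 3.09 to 21.1. The ranges overlapped. After IL-6, 3 of the 8 myeloid markers were at least 1.5-fold lower and 0 higher, against 23.2% and 10.8% of all genes. Of the other markers 1 was lower, Gata1 on 29 and 18 reads with an interval of 0.337 to 1.20, and 2 were higher.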

How the data were processed

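The DHS-seq table covers untreated and IL-6-treated M1 cells, with 1 library each. Reads were trimmed by the authors, aligned to NCBIM37 (mm9 in the submitters' processing notes) with BWA and summarized with Seqmonk, whose versions are not given in the sources used here. The deposited signal values are the mean and SD of reads over the 700-bp windows, tiled from each chromosome start, that a coding span touches. This holds for all 55432 rows. No source names the factor of 1.03816 carried by the IL-6 column. How duplicate and multiply mapped reads were treated is not stated, so reads may not be independent molecules.

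Mean times windows, divided by the value of 1 read, was within 0.01 of a whole number in every row. Transcripts that share a boundary gave the reads of stretches by subtraction. Before the log2 ratio was taken, 0.5 reads were added on both sides. Percentiles of ratios are among the 18472 genes that had over 21 reads in 1 library or both, and those of levels among all genes. Gene ends came from GENCODE M1, while promoter starts came from RefSeq and can differ from them, as in Ep300. No test across libraries was possible, and no p-value is given. The recovery was tested on simulated data.

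All 9 genes are named. Of each list, the 2 highest and 2 lowest log2 ratios are named, and for Atf4 the 3 genes of nearest levels with 0.5 to 2 times its windows. The genes and lists were chosen with earlier results of these data known. Alternatives covered the scaling, the transcript, the reads added, the filter, the fold and the background genes. One gene of the marker lists is not reported here. Promoter regions outside the windows and the other experiments of the study are not analyzed here. Calculations ran in Python 3.11.15 (scipy 1.17.1, numpy 2.4.6, pandas 2.3.3) and plots in matplotlib 3.10.9.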

Additional observations from a re-analysis of the deposited data

How the results depend on the processing

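Of 117 values under alternatives, over 21 results, 67 stayed within the counting interval or, for counts, within 1.5 times, 47 moved further, and in 3 a gene past 1.5-fold reversed. Another 6 of 70 log2 ratios, none past 1.5-fold before, changed sign, which were Crem and Ep300 under both scalings set on strong windows, and Crebbp and the median without scaling, at -0.02. Without scaling, with the total over coding spans, with 5 reads added or with all windows of any transcript, Atf4 and Crtc2 remained the lower genes, and so they did at a fold of 2. The scaling decided most. With the median of ratios over 544 strong windows the median log2 ratio of the 9 genes was 1.86, with 0 genes at least 1.5-fold lower and 8 higher. With the trimmed mean it was 1.72, with 0 lower and 7 higher. By construction these factors place strong windows near no change. Crtc2 reversed in sign, to a log2 ratio of 0.71 with the median of ratios, 0.57 with the trimmed mean and 0.13 with its shortest transcript. That transcript leaves out the 5′ windows, and the interval of its ratio holds 1. With the shortest transcripts Atf4 at -1.46 and Ep300 at -1.07, on 18 and 8 reads, were the lower genes. Depth limits single windows of Creb1, Atf2 and Ep300, and 1 library per condition limits every difference. No paired analysis was possible because the labels carry no replicate numbers and there is only 1 library of either kind.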
